A study of Mus musculus with 6 samples.

Results

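The genes described here are 8 published targets of the microRNA miR-128 that act in chromatin regulation and signalling: Phf6, Bmi1, Suz12, E2f3, Rps6kb1, Sirt1, Fbxw7 and Map2k7. They were taken by name, and every probe of the deposited array table whose annotated symbol is 1 of these genes was included. Of the 25697 probes, 9 met that rule and they covered 6 of the 8 genes. No probe carried the symbol Rps6kb1 or Map2k7 in the annotation used here, which leaves 1719 probes without a symbol, so those genes were not analysed here. Of the 9 probes, 6 were detected on all 6 arrays, 1 for each of the 6 genes. The other 3 were detected on 0 arrays.

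The samples were primary vascular smooth muscle cells (VSMC) from C57BL/6J mice aged 8 weeks, transduced with lentivirus and profiled on Illumina bead arrays. The miR-128 group (mir128, 2 arrays, replicates A and B) carried virus for overexpression of miR-128. The control groups shScr1 and shScr2 (2 arrays each, replicates A and B) carried virus for a scrambled miRNA. All 3 groups were therefore infected, selected with puromycin for 2 days and collected for RNA after 5 days, and no uninfected cells were analysed here. The series design calls the replicates biological, but the labels do not say which mice or cultures they came from, so p-values measure the spread between these arrays. The labels do not give the scrambled sequence, how shScr1 and shScr2 differ, or which miR-128 locus was expressed.

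A microRNA is a short RNA that guides an Argonaute protein to partly complementary sites, mostly in the 3′ untranslated regions of messenger RNAs, and lowers the stability or the translation of the message. Pairing of its seed, the bases near its 5′ end, largely sets which messages are bound. A target can thus lose protein with little loss of mRNA, and an expression array reads the mRNA alone. miR-128 is best known as a neuronal microRNA, and Bmi1 and Suz12, subunits of the Polycomb complexes PRC1 and PRC2, are among its published targets in brain tumour cells.

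The mature strand is shown because its seed defines the target class; capitals mark the seed, bases 2 to 8. It is encoded at 2 mouse loci, Mir128-1 at chr1:128202404-128202424 on the plus strand and Mir128-2 at chr9:112118644-112118664 on the minus strand (RefSeq, GRCm38.p6). Both give the same 21 bases. Among 1679 mature mouse miRNA names in that table, 1 had this seed. The miR-27 seeds share a run of 6 bases with it, shifted by a base, and are shown for comparison.
mmu-miR-128-3p: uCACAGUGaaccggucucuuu
mmu-miR-27a-3p: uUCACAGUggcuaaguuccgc
mmu-miR-27b-3p: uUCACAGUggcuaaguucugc
The hairpins that carry the strand are given next, with the mature strand in capitals. Outside it the precursors differ in length, 70 bases for Mir128-1 and 76 for Mir128-2.
Mir128-1: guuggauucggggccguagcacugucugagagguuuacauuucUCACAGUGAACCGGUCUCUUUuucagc
Mir128-2: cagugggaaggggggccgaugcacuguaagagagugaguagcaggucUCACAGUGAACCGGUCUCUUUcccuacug
The array does not measure mature miR-128, so the overexpression itself was not checked. Seed matches in the target messages were not analysed here.

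Values are log2 intensities after background correction and quantile normalization, and each probe is compared with itself across arrays, never with another probe. miR-128 replicate A had 13277 detected probes, and the other 5 arrays had 11589 to 12343. That array also had the highest upper quartile of raw intensity, 373.2 against 201 to 252.4 on the others. Over the tested probes, replicate A minus replicate B had an SD of 0.544 in the miR-128 group, 0.291 in shScr1 and 0.319 in shScr2. Smooth muscle markers were present: 8 of 9 were detected and Cnn1 was not. Of the 8 tested, 6 were higher with miR-128, where 14.7% of all genes were. Among the 6 were Tagln, Actg2 and Lmod1 (log2 changes 4.75, 5.11 and 3.49). The 6 also included Myh11, named after its values were seen and detected on 0 scrambled arrays. It passed the detection filter through the miR-128 group. Lmod1 was detected on 1 scrambled array. Over genes detected on all 6 arrays, 4 of 5 markers were higher, against 16.1% of all genes. The summed linear level of the smooth muscle markers ran from 17100 to 33300 on the scrambled arrays. It was 85900 and 108000 on the miR-128 arrays. Adipocyte markers were detected on 0 arrays, and the leukocyte genes Ptprc, Adgre1 and Itgam were also undetected. Of 5 leukocyte markers on the array, the tested ones, Lyz2 and Cd3e, were both higher (log2 changes 1.36 and 1.59). They were detected on 3 and 2 scrambled arrays, at log2 levels of 4.56 to 5.45 there. On the authors' values neither passed (limma adjusted p = 0.0534 and 0.0632). A second tested Lyz2 probe was at 0.51 (limma adjusted p = 0.0532). The summed level of the leukocyte list was 224 to 252 on scrambled arrays and 310 and 422 with miR-128. Of 2 tested endothelial markers 0 passed in limma (0.442 and 0.466, both adjusted p), with list sums of 173 to 198 and then 172 and 183. Of 5 tested fibroblast markers Dcn was higher (log2 change 1.04) and Pdgfra lower (−0.97), with list sums of 1570 to 3570 and then 3200 and 2530. Dcn read 10.33 and 10.13 in shScr1, 7.87 and 7.83 in shScr2 and 10.26 and 9.89 with miR-128, so its higher mean rests on shScr2 and the miR-128 arrays were no higher than shScr1. With the scrambled groups pooled it did not pass (limma adjusted p = 0.351). The part of these markers in the results was not tested.

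Of the 6 detected genes, 1 changed with miR-128: Phf6 was 2.05-fold lower than in the scrambled groups, and Bmi1, Suz12, E2f3, Sirt1 and Fbxw7 did not pass. The comparison was made with limma's moderated test with Benjamini-Hochberg adjustment over all 13236 detected probes, at an adjusted p of 0.05. The background was high: 26.5% of all tested probes passed, 13.4% higher and 13.1% lower. The count of 1 in 6 is therefore not above that of probes at large. The median log2 change of the 6 probes was −0.15, against −0.02 over all tested probes. In bulk RNA, fewer cells of a type and less RNA per cell cannot be told apart, here and in every result that follows.

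**Figure D1:**
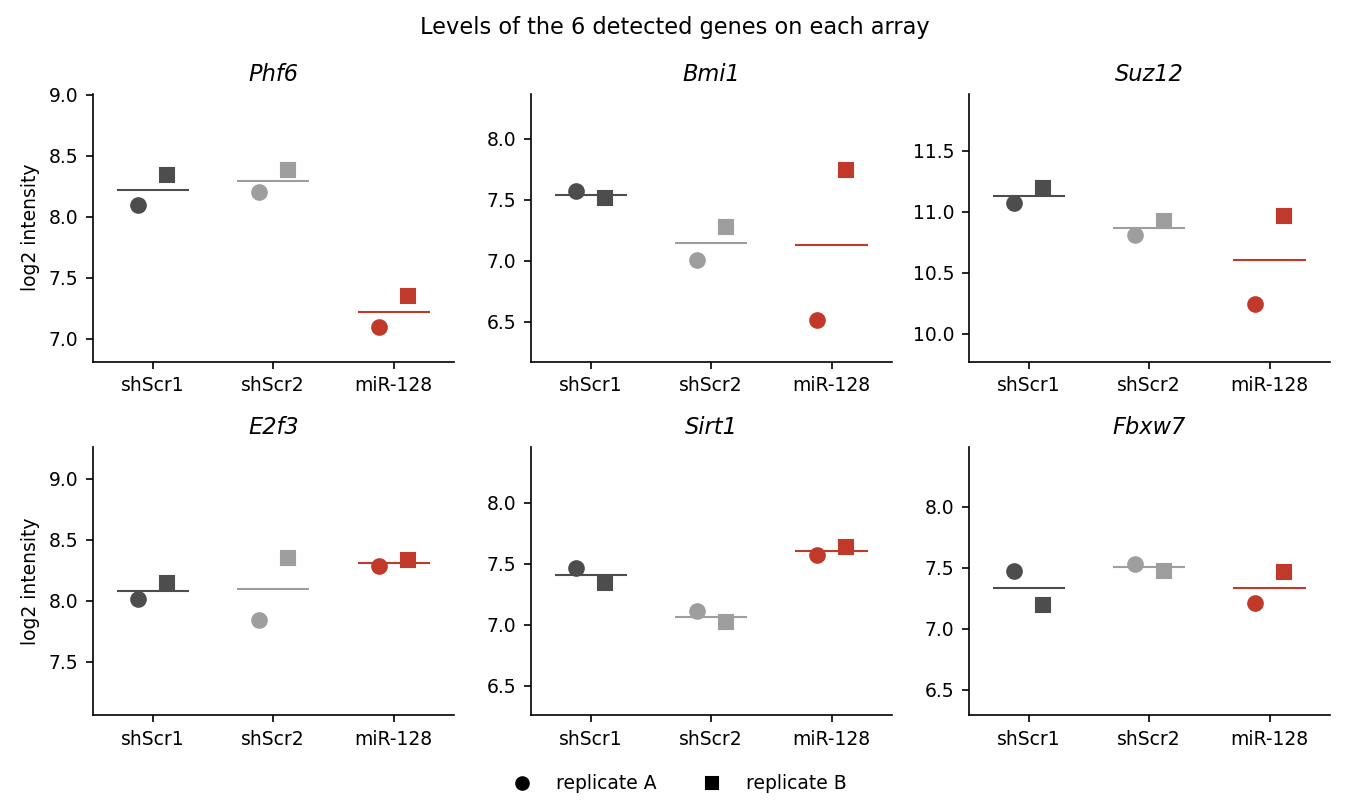
Level of each of the 6 detected genes on each array (vertical axis, log2 intensity, the same span in every panel) in the groups shScr1, shScr2 and miR-128; circles are replicate A, squares replicate B and lines group means. Both miR-128 arrays lie below all 4 scrambled arrays for Phf6 and above them for Sirt1, and Bmi1 has 1 miR-128 array on each side.

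Phf6 encodes a PHD finger protein that binds chromatin and is found in the nucleus and nucleolus; it is a tumour suppressor gene in T-cell leukaemia. Its detected probe, ILMN_1230912, read 8.10 and 8.34 in shScr1, 8.20 and 8.38 in shScr2, and 7.10 and 7.35 in the miR-128 group (replicates A and B in each, log2 level). Both miR-128 arrays were lower than all 4 scrambled arrays, with a gap between the groups wider than the spread within any of them. Among all tested probes, 23.4% likewise had both miR-128 arrays below all scrambled arrays, and 46.2% had both beyond them on the same side.

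The mean log2 level of Phf6 was 7.22 ± 0.18 (SD, n = 2) with miR-128 and 8.26 ± 0.13 (SD, n = 4) on the scrambled arrays. The log2 change was −1.03 ± 0.16 (SE), with a 95% interval of −1.42 to −0.64 and a limma adjusted p of 0.00726. Against each scrambled group alone it was −0.996 against shScr1 (limma adjusted p = 0.0165) and −1.07 against shScr2 (0.0136). These comparisons share the miR-128 arrays. The scrambled groups differed by 0.07 (limma adjusted p = 0.951). None of the 6 genes differed between them past the threshold in limma, where 0.0831% of all tested probes did. At an unadjusted p under 0.05 in limma 0 of the 6 did, where 1393 of the 13236 tested probes did. The order of the levels was miR-128, then shScr1 and shScr2, and the scrambled neighbours did not differ beyond their spread. With either shScr1 array left out, the call against shScr1 was lost, with log2 changes of −1.12 and −0.87 (limma adjusted p = 0.0862 and 0.133). With either shScr2 array left out, the call against shScr2 was lost too, at −1.16 and −0.98 (limma adjusted p = 0.0787 and 0.105). The change against both groups together passed without any 1 of the 6 arrays.

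The second Phf6 probe, ILMN_1237295, was at background on every array, with detection p-values from 0.569 to 0.989 and log2 levels of 4.22 to 4.38. It gives no second reading of the gene. The raw intensities of the detected probe were 336.9 to 377.3 on the scrambled arrays, 330.7 on miR-128 replicate A and 246.7 on replicate B. Before normalization replicate A was thus close to the scrambled arrays. After background correction and normalization replicate A stood at −1.16 from the scrambled mean on the log2 scale and replicate B at −0.91. Under 3 other scalings, namely arrays brought to a common median, no background correction and the authors' own values, both arrays stayed below all scrambled arrays.

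The genes most like Phf6 over the 6 arrays, among 7052 genes detected on all of them, were Gtf3c6 (Pearson r = 0.998), Pcyox1 (0.997) and Wrn (0.997). Gtf3c6 encodes a subunit of the RNA polymerase III factor TFIIIC, Pcyox1 an enzyme that degrades prenylated cysteine and Wrn a DNA helicase. They were 0.97 to 1.02 lower on the log2 scale. With 6 arrays in 3 groups that share their normalization, such values describe a shared step between groups and are not tested.

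Bmi1 encodes a RING finger subunit of PRC1, which pairs with RING1 or RNF2 to ubiquitylate histone H2A and is known for repressing the Cdkn2a locus. Its probe, ILMN_2645439, was detected on all 6 arrays. It read 7.57 and 7.52 in shScr1, 7.01 and 7.27 in shScr2, 6.51 on miR-128 replicate A and 7.74 on miR-128 replicate B (log2 level). Replicate A was the lowest of all 6 arrays and replicate B the highest.

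The mean log2 level of Bmi1 was 7.13 ± 0.87 (SD, n = 2) with miR-128, 7.54 ± 0.04 (SD, n = 2) in shScr1 and 7.14 ± 0.19 (SD, n = 2) in shScr2. The miR-128 and shScr2 means were almost equal and shScr1 was higher, and the miR-128 arrays spanned both. The difference between the scrambled groups, shScr2 minus shScr1, was −0.40 and did not pass (limma adjusted p = 0.798). The log2 change against both scrambled groups was −0.21 ± 0.33 (SE), with a 95% interval of −1.0 to 0.57 and a limma adjusted p of 0.665. That interval spans a fall to 0.501 of the scrambled level and a rise to 1.48 times it. It was −0.41 against shScr1 (limma adjusted p = 0.472) and −0.01 against shScr2 (0.983).

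Set against the scrambled mean, replicate A was lower by 0.83 and replicate B higher by 0.40, so the arrays differed by 1.23 on the log2 scale. That split was known before this comparison was set up, and it is given as a description. Among all tested probes, 3.32% had replicate A below and replicate B above all 4 scrambled arrays, 6.43% had the 2 arrays beyond the scrambled arrays on opposite sides, and 3.32% had a difference between them at least as large. The raw intensities were 279.7 and 250.7 in shScr1, 197.1 and 194.3 in shScr2, 255.7 on replicate A and 295.9 on replicate B. Replicate A was therefore inside the scrambled range before normalization, on the array with the highest upper quartile. After median scaling it was −0.77 and replicate B 0.44; without background correction the values were −0.47 and 0.26, and on the authors' scale −0.21 and 0.14. Replicate A was below and replicate B above all 4 scrambled arrays each time. Leaving out a miR-128 array leaves the value of the other, and no test is drawn from it. What sets the replicates apart was not tested.

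**Figure D2:**
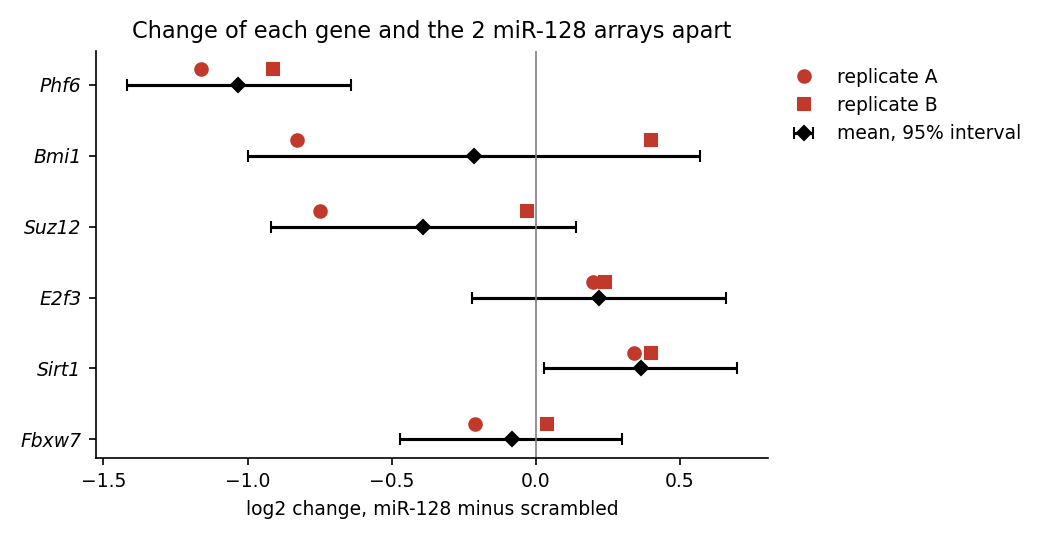
Log2 change of each gene, miR-128 minus scrambled, with both scrambled groups averaged (horizontal axis), with its 95% interval from limma (diamonds and bars) and the value of each miR-128 array (circle replicate A, square replicate B). The interval of Phf6 runs from −1.42 to −0.64 and that of Bmi1 from −1.0 to 0.57, with its arrays at −0.83 and 0.40.

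The genes with the most similar pattern to Bmi1 were Lrrc4 (Pearson r = 0.994 over 6 arrays), Gpbp1 (0.992) and Mtss1 (0.988), among the same 7052 genes. Lrrc4 encodes a leucine-rich repeat membrane protein of synapses, Gpbp1 a GC-rich promoter binding protein and Mtss1 a protein that binds actin and membranes. All 3 had replicate A lowest and replicate B highest of the 6 arrays. Mtss1, for example, read 6.70, 6.35, 5.68 and 6.09 on the scrambled arrays, 5.09 on replicate A and 6.73 on replicate B. The genes were chosen for their correlation with Bmi1, so this shared order follows from the choice. It is a description and gives no support to the split.

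Suz12 encodes a core subunit of PRC2, the complex that methylates histone H3 at lysine 27 through EZH2. Its probe, ILMN_3009010, read 11.07 and 11.19 in shScr1, 10.81 and 10.92 in shScr2, 10.25 on miR-128 replicate A and 10.97 on replicate B (log2 level). Replicate A was the lowest of the 6 arrays and replicate B lay inside the scrambled range, so the groups overlapped.

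The log2 change of Suz12 was −0.39 ± 0.22 (SE), with a 95% interval of −0.92 to 0.14 and a limma adjusted p of 0.234. It was −0.53 against shScr1 (limma adjusted p = 0.188) and −0.26 against shScr2 (0.509). The order of the group means was miR-128, shScr2 and shScr1, and the spread of the miR-128 arrays took in shScr2. The difference between the scrambled groups, shScr2 minus shScr1, was −0.27 and did not pass (limma adjusted p = 0.801). Replicate A was 0.75 below the scrambled mean and replicate B 0.03 below it. Without replicate B the change passed, at −0.75 (limma adjusted p = 0.0150), and without replicate A it was −0.03 (limma adjusted p = 0.885). In these leave-one-out fits the lone miR-128 array is assumed to vary like the scrambled arrays. The difference between the miR-128 arrays was −0.72, with a limma adjusted p of 0.0990 in a fit whose spread comes from the scrambled pairs alone. That p was 0.0469 with median scaling, 0.00456 without background correction, 0.0104 on the authors' values and 0.0485 over probes detected on all 6 arrays. In that comparison of the 2 miR-128 arrays, 1.72% of all tested probes passed, 1.22% with replicate A lower. In the 4 settings where Suz12 passed the share was far higher: 10.8% with median scaling, 17.2% without background correction, 14.4% on the authors' values and 11.4% over probes detected on all 6 arrays.

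**Figure D3:**
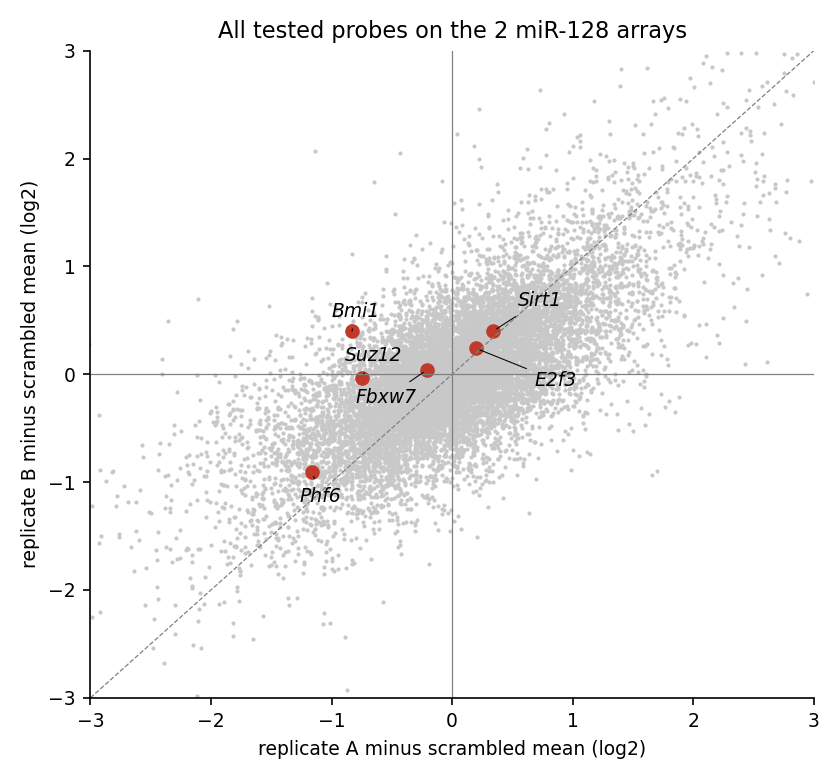
All 13236 tested probes (grey) and the 6 genes (red), as the log2 difference from the scrambled mean on miR-128 replicate A (horizontal) and replicate B (vertical); the dashed line marks equal values, and 67 probes lie beyond the axes. Phf6 lies near the dashed line in the lower left, whereas Bmi1 and Suz12 lie to its left, with the value of replicate A lower than that of replicate B.

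The genes of the PRC1 list moved in no common direction. Of 16 tested genes of the list, which includes Bmi1, 3 were higher, 1 was lower and 12 did not pass, with a median log2 change of 0.04, against 0 over all 9010 genes. By gene, taking the brightest probe of each, 27.5% of all genes passed, 14.7% higher and 12.8% lower. Scmh1, a sterile alpha motif protein of PRC1, was 3.53-fold higher (log2 change 1.82 ± 0.17 SE, limma adjusted p = 0.00178). Its levels were 8.29 and 8.02 in shScr1, 8.21 and 8.07 in shScr2 and 10.15 and 9.79 with miR-128, without overlap.

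Pcgf5, which takes the place of Bmi1 in a variant PRC1, was 1.86-fold higher (limma adjusted p = 0.0274; 0.0653 with median scaling). Without replicate B its log2 change was 0.54 in place of 0.89. Bcor, the co-repressor of another variant PRC1, was 1.66-fold lower (limma adjusted p = 0.0137), while a second probe of it was at −0.28 (limma adjusted p = 0.232). The catalytic partners of Bmi1 did not pass. Ring1 was at 0.005 and Rnf2 at −0.12 on the log2 scale (limma adjusted p = 0.985 and 0.744), and Rnf2 was detected on 3 of the arrays.

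In PRC2, 0 of 8 tested genes were higher and 1 was lower, with a median log2 change of −0.37. The gene that fell was Mtf2, a Polycomb-like protein that helps bring PRC2 to chromatin (log2 change −0.53, limma adjusted p = 0.0406). That call was lost, among other settings, with median scaling (0.0743), without background correction (0.0506), on the authors' values (0.0665), with the replicate block (0.0526) and without miR-128 replicate A (0.0708), each a limma adjusted p. On 7 of the 8 genes replicate A was lower than replicate B, as it was on 50.1% of all genes. Ezh2, the methyltransferase, read 10.27, 10.29, 10.20 and 10.32 on the scrambled arrays, 8.67 on replicate A and 9.96 on replicate B. On that probe, its brightest, both miR-128 arrays were below all scrambled arrays, but far apart.

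The log2 change of Ezh2 was −0.95 ± 0.34 (SE, limma adjusted p = 0.0797), and a second probe gave −0.53 (limma adjusted p = 0.0881). On the second probe the arrays were closer together, at −0.66 on replicate A and −0.39 on replicate B. Eed, which binds the methylated histone, went the other way between replicates, at 0.15 on A and −0.51 on B (log2 change −0.18, limma adjusted p = 0.570). Rbbp7, a histone-binding subunit that PRC2 shares with the NuRD deacetylase, was at −2.09 on replicate A and −0.24 on replicate B on its brightest probe; it is named after its values were seen. Of its 3 other probes, ILMN_2896823 passed as lower (−0.67, limma adjusted p = 0.0329) with the arrays closer together, at −0.87 and −0.48. Without replicate B, 5 of the 8 PRC2 genes passed as lower in limma, where 17.6% of all genes did, and without replicate A 0 did, where 11.8% of all genes did. In PRC1 the median log2 change was 0.15 without replicate B and 0.07 without replicate A, against 0.01 and 0 over all genes.

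**Figure D4:**
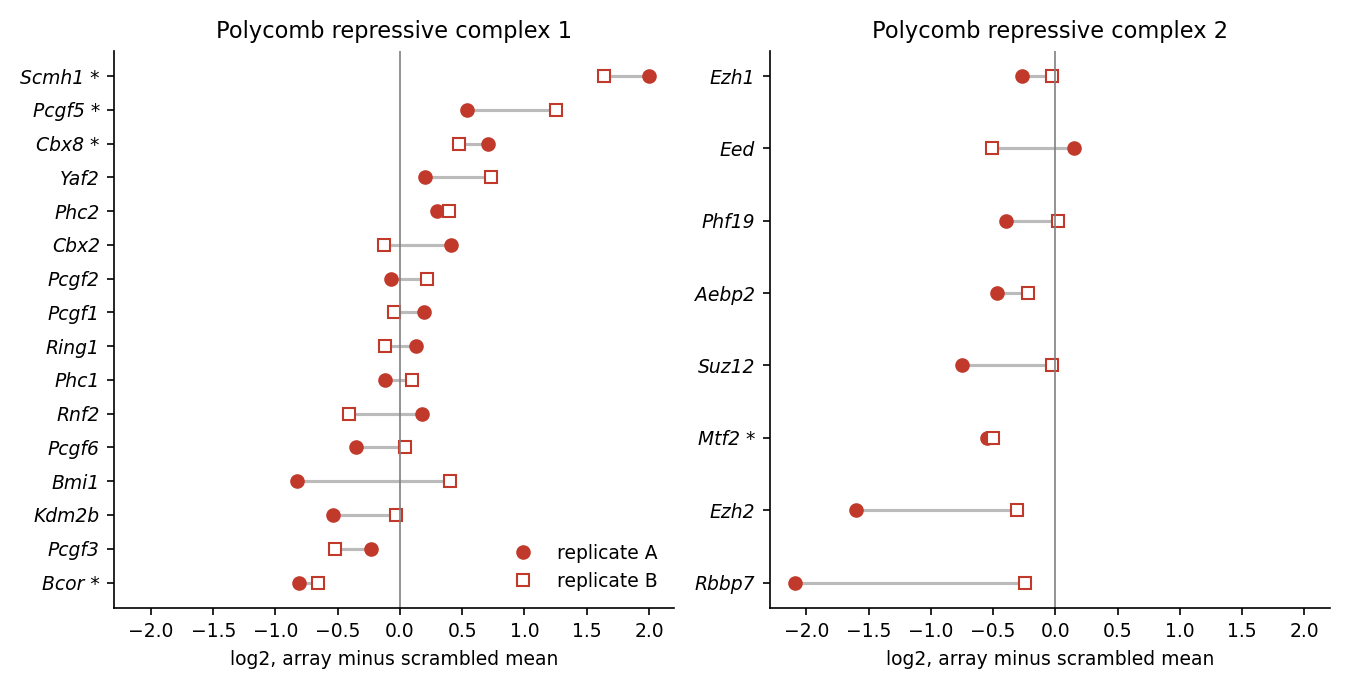
Genes of PRC1 (left) and PRC2 (right), as the log2 difference of each miR-128 array from the scrambled mean (circle replicate A, open square replicate B); an asterisk marks genes past the threshold against both scrambled groups. The arrays lie close together for Bcor and Mtf2 and far apart for Bmi1, Ezh2 and Rbbp7, each on its brightest probe.

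The loci that Polycomb complexes are known to repress gave mixed counts. Of 20 tested Ink4 and Hox genes, 4 were higher and 3 lower (median log2 change 0.05), where 14.7% of all genes were higher and 12.8% lower. Cdkn2b, which encodes the CDK inhibitor p15, rose 3.76-fold: it read 6.72, 6.47, 7.0 and 6.83 on the scrambled arrays and 8.95 and 8.39 with miR-128. Its log2 change was 1.91 ± 0.20 (SE, limma adjusted p = 0.00221). The neighbouring Cdkn2a did not pass on either of its probes, which lay on opposite sides, at 0.22 and −0.55 (limma adjusted p = 0.368 and 0.149). Hoxa5 was 1.70-fold lower (limma adjusted p = 0.0154). Hoxb3 was lower on its brightest probe (−1.15, limma adjusted p = 0.0111) but not on another (0.40, limma adjusted p = 0.108). In the NuRD complex 2 of 9 tested genes were lower and 0 higher (median −0.07), where 12.8% of all genes were lower and 14.7% higher. When each gene's probes were averaged 3 were lower and the median was −0.21. Chd4, the remodelling ATPase, named after its values were seen, was at 0.04 on its brightest probe but lower on 2 others (−0.93 and −0.68, limma adjusted p = 0.00915 and 0.0453). The 2 that passed were Mbd3, a methyl-CpG binding domain protein (−0.73), and Mta1, a scaffold subunit (−0.81). Mbd3 was at −0.45 without miR-128 replicate A and did not pass (limma adjusted p = 0.0643). Mta1 was at −0.42 without replicate B (limma adjusted p = 0.0650), and it also did not pass with median scaling (0.0590), with no detection filter (0.0794) or on the authors' values (0.0796).

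E2f3 encodes a transcription factor that drives S-phase genes when released from pocket proteins. Its probe, ILMN_2743503, read 8.02 and 8.14 in shScr1, 7.84 and 8.35 in shScr2, and 8.29 and 8.33 with miR-128 (log2 level). Both miR-128 arrays lay inside the scrambled range, just under its highest array. The log2 change was 0.22 ± 0.18 (SE), with a 95% interval of −0.22 to 0.66 and a limma adjusted p of 0.414. Against shScr1 it was 0.23 (limma adjusted p = 0.481) and against shScr2 0.21 (0.517). The 3 group means, 8.08, 8.10 and 8.31, were ordered shScr1, shScr2 and miR-128 with no neighbours apart beyond their spread.

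Among E2F, DP and pocket proteins, 1 of 11 tested genes was lower and 0 higher, with a median of −0.04. Of all genes 12.8% were lower and 14.7% higher. E2f6, named after its values were seen, was at 0.32 on its brightest probe (limma adjusted p = 0.161). Another of its probes, ILMN_2791963, passed as higher (0.53, limma adjusted p = 0.0369). E2f4, a repressor E2F, fell by 0.999 on the log2 scale (limma adjusted p = 0.0214). E2f1 was at −0.20 (limma adjusted p = 0.473) and Rb1, the retinoblastoma pocket protein, at 0.43 (limma adjusted p = 0.0775). Here too replicate A was lower than replicate B on most genes, 10 of the 11, where it was on 50.1% of all genes. The difference on those genes ran from −0.05 on E2f3 and E2f5 to −0.92 on E2f2 (A minus B, log2). Without replicate B 5 genes passed as lower and 0 as higher, where 17.6% of all genes passed as lower and 19% as higher. Without replicate A 1 passed as lower and 2 as higher, where the shares were 11.8% and 14.2%.

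The list of E2F target genes moved further. Of 21 tested, 16 were lower and 0 higher, with a median log2 change of −1.09, against 12.8% of all genes lower. The 16 include Ccna2 and Chek1, which were detected on 2 and 3 scrambled arrays and on 0 miR-128 arrays, so they passed the detection filter through the scrambled groups. Over genes detected on all 6 arrays, 14 of 19 were lower, against 17.1% of all genes. Cdc6, which loads the replicative helicase, read 8.69, 8.84, 8.80 and 8.90 on the scrambled arrays and 6.87 and 7.52 with miR-128. It was 3.05-fold lower (log2 change −1.61 ± 0.21 SE, limma adjusted p = 0.00385), and the change was −0.98 as a mean over its probes. Tk1, thymidine kinase, was 3.87-fold lower (limma adjusted p = 0.00469), and Rrm2, a ribonucleotide reductase subunit, 2.66-fold lower (0.00620). Replicate A was lower than replicate B on 19 of the 21, where it was on 50.1% of all genes. Without replicate B 16 were lower, where 17.6% of all genes were, and without replicate A 14, where 11.8% were. With an array left out of the scrambled groups the count was 7 to 9, with medians of −1.12 to −1.06, where 4.86% to 5.77% of all genes were lower.

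Sirt1 encodes an NAD-dependent deacetylase of histones and transcription factors. Its probe, ILMN_2643159, read 7.47 and 7.34 in shScr1, 7.11 and 7.02 in shScr2, and 7.57 and 7.64 with miR-128 (log2 level). Both miR-128 arrays were above all 4 scrambled arrays, by a small margin over shScr1, as were 22.8% of all tested probes. The log2 change was 0.37 ± 0.14 (SE), or 1.29-fold higher, with a 95% interval of 0.03 to 0.70. Its unadjusted p was 0.0355 in limma and the adjusted p 0.0983, so it did not pass.

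The change of Sirt1 was 0.20 against shScr1 (limma adjusted p = 0.420) and 0.54 against shScr2 (0.0620), which share the miR-128 arrays. The order of the group means was shScr2 at 7.07, shScr1 at 7.41 and miR-128 at 7.6. The scrambled groups differed by 0.34, nearly as much as miR-128 differed from both, though not past the threshold (limma adjusted p = 0.540). Against shScr2 alone it passed in 5 alternatives, with limma adjusted p from 0.0380 to 0.0460. Of 12 tested sirtuin and NAD-supply genes, Sirt1 included, 0 were higher and 1 was lower (median −0.27), where 14.7% and 12.8% of all genes were. The gene that fell was Naprt, which makes NAD from nicotinic acid, at 3.13-fold lower (limma adjusted p = 0.00407).

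Fbxw7 encodes the F-box protein that picks substrates such as cyclin E, Myc and Jun for the SCF ubiquitin ligase. Its detected probe, ILMN_2681824, read 7.48 and 7.19 in shScr1, 7.53 and 7.47 in shScr2, and 7.21 and 7.46 with miR-128 (log2 level). All miR-128 values lay inside the scrambled range. The log2 change was −0.08 ± 0.16 (SE), with a 95% interval of −0.47 to 0.30 and a limma adjusted p of 0.737. The group means were 7.33 in shScr1, 7.50 in shScr2 and 7.33 with miR-128, with no neighbours apart beyond their spread.

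The other Fbxw7 probes were at background on every array. ILMN_2676431 had detection p-values of 0.0689 to 0.667 and ILMN_2844699 of 0.184 to 0.608. Of 15 tested genes of the ligase and its substrates, 3 were higher and 4 lower (median −0.08), where 14.7% of all genes were higher and 12.8% lower. Klf5, a transcription factor and substrate, was 2.48-fold higher (limma adjusted p = 0.00264). It read 6.92 and 6.95 in shScr1, 7.95 and 7.71 in shScr2 and 8.65 and 8.73 with miR-128, a smaller rise over shScr2. Srebf2, which controls cholesterol synthesis, was 2.40-fold lower (0.00326). Ccne2, a cyclin E that is also among the E2F targets, was 3.46-fold lower (0.00839). FBXW7 acts on its substrates through protein decay, which mRNA does not show.

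Rps6kb1, the S6 kinase downstream of mTORC1, had no annotated probe, and its pathway is given by its other genes. Of 15 tested, 1 was higher and 3 were lower (median −0.17), against the same shares of all genes, 14.7% and 12.8%. Eif4ebp1, an mTORC1 substrate that holds back translation, was 2.04-fold higher (limma adjusted p = 0.00605). Rps6, the ribosomal protein that the kinase phosphorylates, was 1.65-fold lower (0.0219), and Deptor, an mTOR inhibitor, 1.5-fold lower (0.0235). A second Deptor probe was at 0.17 (limma adjusted p = 0.436). Mtor itself was at 0.49 (limma adjusted p = 0.0697).

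Map2k7, which phosphorylates JNK, also had no annotated probe. In the JNK cascade 6 of 14 tested genes were higher and 0 lower, with a median of 0.26, against 14.7% of all genes higher. Map2k4, the other JNK kinase, read 8.82, 8.85, 8.55 and 8.74 on the scrambled arrays and 9.81 on both miR-128 arrays. It was 2.11-fold higher (log2 change 1.07 ± 0.14 SE, limma adjusted p = 0.00403). Dusp1, a phosphatase that switches JNK and p38 off, was 3.05-fold higher (0.00130), and Map3k11, an upstream kinase, 1.79-fold higher (0.0123). Dusp1 read 9.88 and 9.72 in shScr1, 10.96 and 10.89 in shScr2 and 11.98 and 11.96 with miR-128. Its rise was thus smaller over shScr2 than over shScr1. Mapk8, which encodes JNK1, was at −0.14 (limma adjusted p = 0.578). The other genes that rose were Jun, the transcription factor that JNK phosphorylates (log2 change 0.82), and the phosphatases Dusp10 (0.67) and Dusp16 (0.63), named after their values were seen. The 6 genes that rose were thus 3 phosphatases that switch JNK off, 2 activating kinases and a target. Jun read 7.38 and 7.52 in shScr1, 8.32 and 8.1 in shScr2 and 8.85 and 8.46 with miR-128. Its rise too was smaller over shScr2. With the scrambled groups pooled 5 genes of the list were higher, where 13.3% of all genes were. The list median was 0.17 without miR-128 replicate A and 0.48 without replicate B, against 0 and 0.01 over all genes. Without an array of the scrambled groups it was 0.18 to 0.33. The count higher was then smaller, as was the share of all genes.

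Other published miR-128 targets went both ways. Of 9 tested, 2 were higher and 4 lower, with a median of −0.28, where 14.7% of all genes were higher and 12.8% lower. One of the 4 was Ntrk3, a neurotrophin receptor named after its values were seen, which was detected on both shScr1 arrays alone. It read 6.52 and 6.23 there, 4.6 and 4.42 in shScr2 and 4.56 and 4.81 with miR-128, so the miR-128 arrays were no lower than shScr2. With the scrambled groups pooled 3 genes were higher and 3 lower. Egfr, the epidermal growth factor receptor, was 3.27-fold higher (limma adjusted p = 0.00181; log2 change 1.71, or 1.09 as a mean over its probes), and Tgfbr1, a TGF-beta receptor, 2.44-fold higher (0.00370). Casc3, an exon junction complex protein, was 2.35-fold lower (0.00409). The list was chosen with earlier results of these data known and is no independent evidence of a direction.

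**Figure D5:**
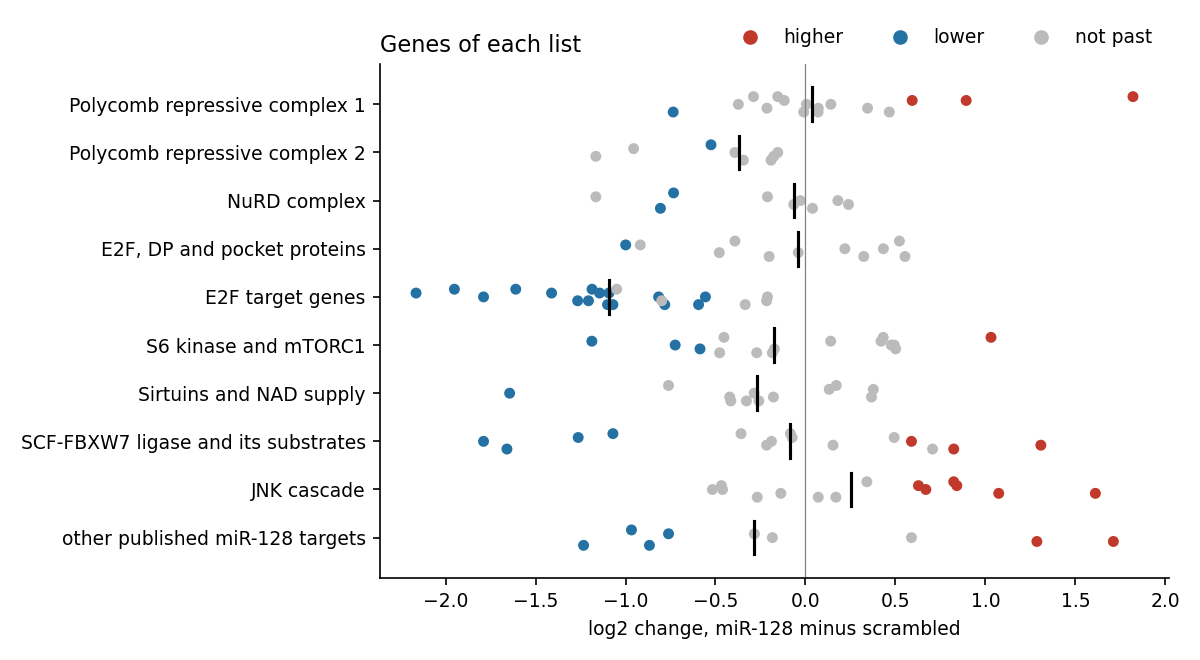
Log2 change of each tested gene, miR-128 minus both scrambled groups (horizontal axis), by list; red genes were higher, blue lower and grey not past the threshold, and black ticks are list medians. The E2F target genes lie to the left with 16 of 21 lower, and the JNK cascade has 6 of 14 higher.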

How the data were processed

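Per its column names, the deposited non-normalized table gives a linear intensity and a detection p-value for each probe on each array; the authors' second table is on a log2-like scale whose transform is not given in the sources used here. It served as an alternative. GenomeStudio 2011.1, lumi and limma are tools listed in the submitters' processing notes.

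Intensities were background-corrected and quantile-normalized with neqc (offset 16, log2) in limma 3.58.1 under R 4.3.3. Probes detected (p under 0.05) on at least 2 of 6 arrays were kept. A mean was fitted for each of the 3 groups with lmFit and eBayes, without covariates; the fit was tested on simulated data. Scrambled groups entered with equal weight. The number of arrays limits the precision. Of 25697 probes 23978 had 1 symbol. Lists used each gene's brightest probe.

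Named were all member probes, in each list the 3 genes past the threshold with the smallest adjusted p, 12 genes by name and the 3 genes most correlated with Phf6 and with Bmi1. Members and lists were chosen with earlier results of these data known.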

Additional observations from a re-analysis of the deposited data

How the results depend on the processing

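Against both scrambled groups, Phf6 was lower and past the threshold under all 17 alternatives tried (log2 change −1.16 to −0.39, limma adjusted p 0.00324 to 0.0387), the smallest change being on the authors' compressed scale. E2f3 (0.09 to 0.35) and Sirt1 (0.12 to 0.41) kept their direction and passed in 0 of 17. Without an array, the count of passing probes ran from 1436 to 4796 against both scrambled groups, 225 to 4538 against shScr1, 255 to 4144 against shScr2, 0 to 165 between the scrambled groups and 0 to 0 between the miR-128 arrays, and that of the 6 genes' probes from 1 to 3 (3 without miR-128 replicate B, of which Bmi1 is a reading of the known split between the miR-128 arrays and no independent call). At an unadjusted p under 0.05, limma gave 688 to 818 probes where the scrambled groups had 0 calls and 2929 to 3214 where the miR-128 arrays had 0, with fewer residual degrees of freedom. With array weights the first 4 counts were 1835, 1749, 1569 and 460. Between the scrambled groups, 11 probes in the main setting became 39 without background correction, 7 with detection on all 6 arrays, 31 on the authors' values and 43 with trend and robust. Between the miR-128 arrays, 228 became 1434 with median scaling, 2275 without background correction, 1152 with detection on all 6 arrays, 1900 on the authors' values, 117 with no filter, and 146 and 141 by gene. At an unadjusted p under 0.05 the counts were 3319 in the main setting, 4448 with median scaling, 4024 without background correction, 3291 with detection on all 6 arrays and 4367 with no filter. The adjusted count thus moved with the scaling and with the filter; the cause was not tested.

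Changes near 0 turned direction in some settings. Bmi1 against shScr2 was 0.059 with median scaling, 0.022 without background correction and 0.024 on the authors' values. Leaving out an array, Bmi1 ran from −0.829 to 0.40 against both groups, from −1.029 to 0.199 against shScr1 and from −0.628 to 0.601 against shScr2, low without miR-128 replicate B and high without replicate A. Suz12 against shScr2 ran from −0.619 to 0.102, Fbxw7 from −0.209 to 0.042 against both groups and from −0.141 to 0.142 against shScr1, and E2f3 from −0.044 to 0.466 against shScr2. Between the scrambled groups Phf6 ran from −0.05 to 0.196 (−0.017 without shScr2 replicate B) and E2f3 from −0.239 to 0.271. Each value that had turned direction was short of the threshold. The labels do not say that a letter marks a shared culture or day; differences between A and B correlated at 0.111 to 0.157 between groups. With the letter as a replicate block, Phf6 stayed past (limma adjusted p = 0.00812) and the count between scrambled groups was 2. The genes named as passing in the lists were picked for the smallest adjusted p in these data, so their staying past is no independent check. Of 33 genes named as passing, 26 to 33 still passed in the alternatives that keep all arrays (of 29 with detection on all 6 arrays, 29 did), 31 and 32 without a miR-128 array and 21 to 23 without a scrambled array; 0 turned direction. Without any 1 scrambled array, the median log2 change ran from 0.01 to 0.04 in PRC1 and from −0.39 to −0.35 in PRC2. It ran from −0.01 to 0.07 in Ink4 and Hox genes and from −0.14 to −0.03 in NuRD. It was −0.22 to 0.03 for S6 kinase and mTORC1 genes. The FBXW7 list stood at −0.15 to −0.01 and other published targets at −0.46 to −0.29. None of these lists then had more genes past the threshold than with all arrays, and the shares of all genes were smaller too. With array weights 12 of 21 E2F targets were lower, where 6.76% of all genes were. In the same setting 3 of 14 JNK cascade genes were higher, where 7.98% of all genes were.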
